A study of Gallus gallus with 71 samples.

Results

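The 100 genes described here had their highest mean before the heat challenge (hour 0) in each of 3 brain nuclei of broiler chicks. Expression was taken as log2(CPM + 1), where CPM is the count of a gene scaled to the total of its library, and in each nucleus the larger of the hour 2 and hour 12 means was subtracted from the hour 0 mean, over the chicks of both treatments and both sexes. The smallest of the 3 differences was the score of a gene, and the genes were chosen by this score. Of 12786 genes with a mean of at least 5 CPM, out of 30108 in the table, 2271 had a score above 0, and the 100 highest were taken. The hour difference chose these genes, so their drop after hour 0 is given as a description and carries no test.

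The chicks were Hubbard x Cobb-500 broilers. EHC (embryonic heat conditioning) chicks had been incubated at 39.5 °C for 12 h a day over embryonic days 7 to 16, and control chicks had stayed at 37.5 °C. On day 4 after hatch all chicks, from a holding room at 30 °C, went into a challenge at 36 °C, and brains were taken at 0, 2 and 12 h, so that hour 0 is the state before the heat. Punches of the nCPa (nucleus of the hippocampal commissure, 24 libraries), the POAH (preoptic anterior hypothalamic area, 24 libraries) and the PVN (paraventricular nucleus, 23 libraries) gave 71 libraries in 18 groups of 4, with 3 in the EHC PVN at hour 12. There were 35 libraries of EHC and 36 of control chicks, and 35 were labelled female and 36 male.

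The POAH is known as the thermoregulatory centre of the hypothalamus, which integrates skin and brain temperature. The PVN holds neurosecretory neurons that drive the pituitary and adrenal response to stress, and the nCPa of birds holds corticotropin-releasing neurons and is counted among the stress-responsive nuclei. A punch takes in all cell types at its site, so that fewer cells of a type and less RNA per cell cannot be told apart in these data.

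Total counts per library were 910033 to 9370799 (median 4157783), with 3 libraries under 1500000. The 100 genes took 0.413% of all counts, and 8.76% of their 7100 single counts were under 10. In 5 libraries, all of hour 2, a set of 63 female-limited genes went against the labelled sex. The sex comparisons that hold hour 2 libraries keep them unless stated. Ranges of expression by sex at hour 2, counts of genes called in each nucleus and drops by sex are also given without them. Median fold changes over all hours and tests of single genes by sex are given with them only. In 3 control nCPa libraries of hour 12, mitochondrially encoded mRNAs were over 4% of the counts. Library numbers followed the hours, so that hour and the order of collection or processing cannot be told apart. Those numbers also ran in sets of 3 nuclei, which may be the punches of 1 chick, although the labels do not name the chick. In 1 set of hour 2, labelled female throughout, the female-limited genes came to 23.3 CPM in the POAH and 31.4 CPM in the PVN, as in males, and to 1855 CPM in the nCPa, as in females, which goes against 1 chick there. In another set of hour 2, labelled male throughout, they came to 2459 CPM in the POAH, 2251 CPM in the nCPa and 1999 CPM in the PVN, as in females.

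The table identifies genes by Ensembl ID alone, and symbols were at hand for 93 IDs only, none of them among the 100. The lists drawn up for heat shock and chaperone genes, immediate early genes, clock genes, neuropeptides and cell types could therefore not be counted among the 100, and the defining markers of the nuclei could not be checked. Apart from the first 2, the genes are called here by their rank in the score. The highest score was that of ENSGALG00010019700 (0.93) and the next that of ENSGALG00010007082 (0.72). The median score was 0.32 and the lowest 0.26, and the cut was not a natural break, since the genes of rank 98, 99 and 100 scored 0.2624, 0.2617 and 0.2616 and the 3 genes just outside scored 0.2615, 0.2576 and 0.2572. Mean expression of the 100 ran from 5.19 to 289 CPM, with a median of 21.2 CPM. Since a score above 0 was needed in every nucleus, it mattered where it was smallest, and this was the nCPa for 39 genes, the POAH for 30 and the PVN for 31.

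ENSGALG00010019700 shows how such a gene looked in single libraries. At hour 0 its 8 nCPa libraries ran from 0.977 to 243 CPM with a median of 100.7 CPM, at hour 2 from 0.912 to 140 CPM with a median of 16.97 CPM, and at hour 12 from 0.623 to 124.8 CPM with a median of 28.2 CPM. In the POAH the median was 22.5 CPM at hour 0 (1.62 to 295 CPM), 7.77 CPM at hour 2 (0.945 to 127 CPM) and 3.57 CPM at hour 12 (1.27 to 107 CPM). The ranges of the 3 hours overlapped almost wholly in both nuclei, and the drop was one of medians and not of all chicks. In the PVN the median was 5.27 CPM at hour 0 (1.14 to 150 CPM), 2.65 CPM at hour 2 (0.747 to 46.8 CPM) and 2.71 CPM at hour 12 (1.15 to 10.7 CPM), so that most PVN libraries were near the low end at every hour.

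ENSGALG00010007082 varied over a similar span. In the nCPa it had a median of 50.5 CPM at hour 0 (3.95 to 125.9 CPM), 26.2 CPM at hour 2 (0.987 to 75.5 CPM) and 46.0 CPM at hour 12 (1.61 to 77.7 CPM). In the PVN the median was 20.5 CPM at hour 0 (3.74 to 69.2 CPM), 4.90 CPM at hour 2 (2.55 to 11.4 CPM) and 4.75 CPM at hour 12 (3.31 to 33.5 CPM). The hour 0 libraries of the PVN thus held the highest values, while 3 of them lay within the range of hour 2.

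The spread between chicks of 1 group was a feature of the whole set. The standard deviation within groups of the same nucleus, hour and treatment had a median of 0.81 on the log2(CPM + 1) scale in the 100 genes, from 0.26 to 2.24, against 0.33 over all 12786 genes. In 99 of the 100 genes it was larger than the score. The rule used these libraries and could favour genes of wide spread, so the wider spread of the 100 is a description. The groups held both sexes, so this spread includes the difference between them. Genes in which every hour 0 library of a nucleus lay above every later library numbered 0 of 100 in each nucleus, and 0% of the 12786 genes did so. The edgeR fits of later hours against hour 0 called 1 of the 100 genes, the gene of rank 7 in the PVN at hour 2 against hour 0, at an adjusted p of at most 0.1. The share of all 20363 genes tested that was called in that contrast was 0.0246%. For the other 5 contrasts of hours 0 of the 100 were called, while 0% to 0.0688% of all genes were. Since the rule used these contrasts, nothing is read from these counts.

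The genes moved together from library to library. Deviations from the group means correlated with a median r of 0.54 over the 4950 pairs of the 100 genes, against 0.05 for pairs of the 12786 genes. The paper describes 3 samples from each chick, though the labels of the 71 libraries do not name the chick. The rule used these same libraries, and genes high in the same hour 0 chicks could pass it together. The correlation is therefore a description. Average-linkage clustering of these correlations put 86 genes in 1 block and left 14 outside, of which the largest cluster held 3. The mean log2(CPM + 1) of the 100 genes, called their level below, is therefore nearly the level of 1 covarying block. It ran from 3.13 in a control PVN library of hour 2 to 6.11 in an EHC POAH library of hour 0. Its correlation with the log2 of the library total was 0.13 and that with the mitochondrial share -0.12 over the 71 libraries.

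**Figure D1:**
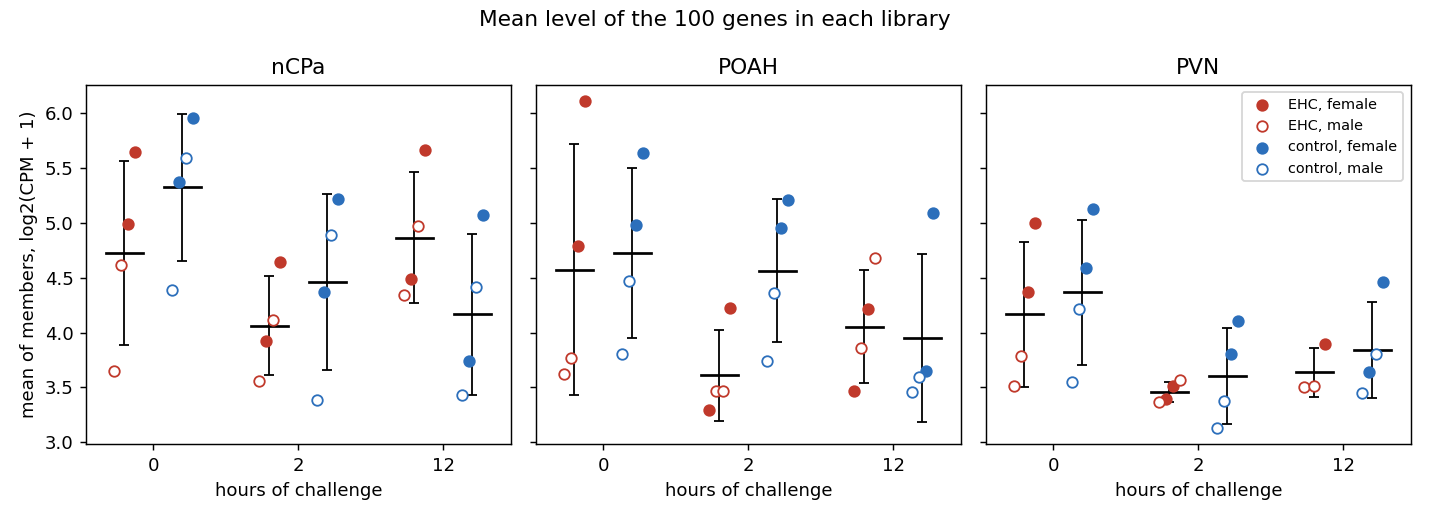
Mean log2(CPM + 1) of the 100 genes in each of the 71 libraries, by nucleus and hours of challenge, with EHC (red) left of control (blue), females filled and males open. Bars are the mean ± SD of a group of 4 libraries (3 in the EHC PVN at hour 12), and libraries of 1 group spread widely, as in the EHC POAH at hour 0 (3.63 to 6.11).

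In the nCPa the level averaged 5.03 ± 0.77 at hour 0, 4.26 ± 0.64 at hour 2 and 4.52 ± 0.72 at hour 12 (SD, n = 8 each). In the POAH it averaged 4.65 ± 0.91, 4.09 ± 0.72 and 4.00 ± 0.61 at hours 0, 2 and 12 (SD, n = 8 each). In the PVN it averaged 4.27 ± 0.62 at hour 0 and 3.53 ± 0.30 at hour 2 (SD, n = 8 each) and 3.75 ± 0.35 at hour 12 (SD, n = 7). The lowest point was hour 2 in the nCPa and the PVN and hour 12 in the POAH. In each nucleus hours 2 and 12 differed by less than their SDs. Of the 100 genes, 22 had a higher mean at hour 2 than at hour 12 in the nCPa, as did 67 in the POAH and 18 in the PVN.

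The drop was then compared between treatments, to see whether conditioned and control chicks both showed it. The rule used the drop over both treatments, and most of the 100 genes covaried as 1 block. Counts of the 100 genes here, and in the treatment comparisons below, are thus neither independent of the choice of genes nor of each other. The median drop, from hour 0 to the larger of the later means, was -0.16 in EHC and 0.73 in control nCPa, and 33 genes were above 0 in EHC chicks against 98 in control chicks. In the POAH it was 0.47 in EHC and 0.12 in control chicks, with 96 and 68 genes above 0. In the PVN it was 0.39 in EHC and 0.44 in control chicks, with 94 and 96 genes above 0. In EHC nCPa 35 of the 100 genes had a lower mean at hour 12 than at hour 0, with a median of -0.15 for hour 0 minus hour 12, against 100 genes and a median of 1.04 in control nCPa. The test of the difference in drop between treatments, hour 0 minus the mean of hours 2 and 12 in EHC minus the same in control, called 0 of the 100 genes in each nucleus by edgeR's quasi-likelihood test at an adjusted p of at most 0.1, and 0% of all 20363 genes in each nucleus. At an unadjusted p under 0.05 there were 19 of the 100 in the nCPa, against 7.85% of all genes, and 1 each in the POAH (3.77%) and the PVN (6.88%), and DESeq2 also called 0 of the 100. The median log2 difference was -0.75 in the nCPa, against 0.32 in the POAH and -0.04 in the PVN. In the nCPa it was -1.03 without the 3 control libraries of hour 12 with over 4% mitochondrial mRNA. That fit left 1 control library at hour 12, the one with the lowest level of its group (3.43), so the value rests on it. Leaving out 1 library at a time gave medians of -0.99 to -0.45 in the nCPa. The last was without control hour 0 replicate 1 and had 9 of the 100 at an unadjusted p under 0.05, against 1288 of the 20363 genes tested. In the POAH the median turned to -0.17 without EHC hour 0 replicate 4.

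EHC and control chicks were also compared at each hour. In the nCPa, the level was 3.65 to 5.65 in EHC chicks and 4.39 to 5.95 in control chicks at hour 0, 3.56 to 4.65 in EHC and 3.38 to 5.22 in control chicks at hour 2, and 4.34 to 5.66 in EHC and 3.43 to 5.07 in control chicks at hour 12. The groups overlapped at every hour. At hour 12, 3 of the 4 control libraries had over 4% mitochondrial mRNA (0.919% to 6.82% in all 4), against 1.18% to 1.86% in EHC chicks, and total counts were 1956211 to 3401717 in EHC and 4681626 to 5130983 in control chicks, and the part of either in the difference was not tested. The median log2 fold change of the 100 genes, EHC over control, was -0.62 before the challenge, where 6 of them were above 0, -0.27 after 2 h, where 24 were, and 0.50 after 12 h, where 88 were. Over all genes tested these medians were 0.01, 0.03 and -0.01. Each rested in part on single libraries, since hour 0 became -0.29 without control replicate 1, hour 2 became -0.08 without control replicate 4, and hour 12 became 0.19 without EHC replicate 4. edgeR called 0 of the 100 genes at each of these hours, against 0%, 0% and 0.00982% of all genes, and 14, 11 and 12 of the 100 had an unadjusted p under 0.05, against 4.74%, 9.06% and 11.1% of all genes. DESeq2 called 0, 0 and 3 of them, against 0.0197%, 1.9% and 2.1% of all genes, so that at hours 2 and 12 neither count stood far from the share of all genes.

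In the POAH at hour 2, EHC chicks had levels of 3.29, 3.46, 3.47 and 4.22, against 3.74, 4.37, 4.96 and 5.21 in control chicks. Of the 4 EHC libraries, 3 were below all control libraries. Library depth set the groups apart as well, with 1370531 to 3173834 counts in EHC and 4888023 to 6099027 in control libraries, and its part in the difference was not tested. The median log2 fold change was -0.78, with 8 of the 100 genes above 0 and 43 at an unadjusted p under 0.05, against 8.95% of all genes. edgeR called 0 of the 100, the smallest adjusted p among them being 0.12, and 0.00491% of all genes. DESeq2 called 13, all lower in EHC, against 2.05% of all genes. edgeR called 4 without control replicate 2 (0.422% of all genes), 3 without EHC replicate 2 (0.147%) and 2 without EHC replicate 4 (0.501%). The rule used these libraries, and most of the 100 genes form 1 covarying block, so these counts are a description. In this comparison 1 EHC library labelled male and 1 control library labelled female went against the sex label. By the female-limited genes, EHC thus held more females and control more males than the labels give. The sex term used the labels, and the fit was not repeated without both libraries. Leaving out either alone gave medians of -0.90 (EHC replicate 1) and -0.76 (control replicate 3). At hour 2 the PVN also had 1 such library in each treatment, and the nCPa 1 such EHC library. At hours 0 and 12 of the POAH the median fold changes were -0.10 and 0.11, and edgeR called 0 of the 100 and 0% of all genes, with 2 and 6 of the 100 at an unadjusted p under 0.05 (5.39% and 6.27% of all genes) and 0 called by DESeq2 (0.342% and 0.226%). Both medians changed sign on leaving out 1 library, with ranges of -0.53 to 0.11 and -0.25 to 0.40.

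In the PVN the median log2 fold change was -0.23 at hour 0, -0.22 at hour 2 and -0.30 at hour 12, and leaving out 1 library gave -0.38 to -0.07, -0.36 to 0.00 and -0.44 to -0.12. edgeR called 0 of the 100 genes at hours 0 and 2, with 0% of all genes called and 8 and 12 of the 100 at an unadjusted p under 0.05 (5.21% and 6.59% of all genes), while DESeq2, which gave an adjusted p to 14 and 56 of them, called 1 and 0 (0.738% and 0.257%). At hour 12 edgeR called 1 of the 100 and 0.255% of all genes, and DESeq2 2 of the 100 and 1.46%. This was the gene of rank 4, which had 2.98, 4.52 and 5.42 CPM in EHC chicks, against 15.9, 17.2, 17.3 and 18.8 CPM in control chicks. It fell by 2.10 ± 0.25 (SE) on the log2 scale in EHC chicks (n = 3 and 4, adjusted p = 0.0235 by edgeR's quasi-likelihood test, adjusted over all genes tested by the Benjamini-Hochberg method). All 3 EHC libraries were below all 4 control libraries, and the gene was singled out because it was the one called. The mitochondrial share did not overlap either, at 0.697% to 0.931% in EHC and 0.960% to 1.37% in control libraries, and its part was not tested. Leaving out any 1 of the 3 EHC libraries left 0 of the 100 called, and a model with all PVN libraries called 0. Over the 3 hours, the median fold change of EHC over control was -0.16 in the nCPa, with -0.22 in the POAH and -0.23 in the PVN, and edgeR and DESeq2 each called 0 of the 100. edgeR called 0% of all genes there, and 1, 1 and 12 of the 100 had an unadjusted p under 0.05, against 6.72%, 3.97% and 3.66% of all genes.

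**Figure D2:**
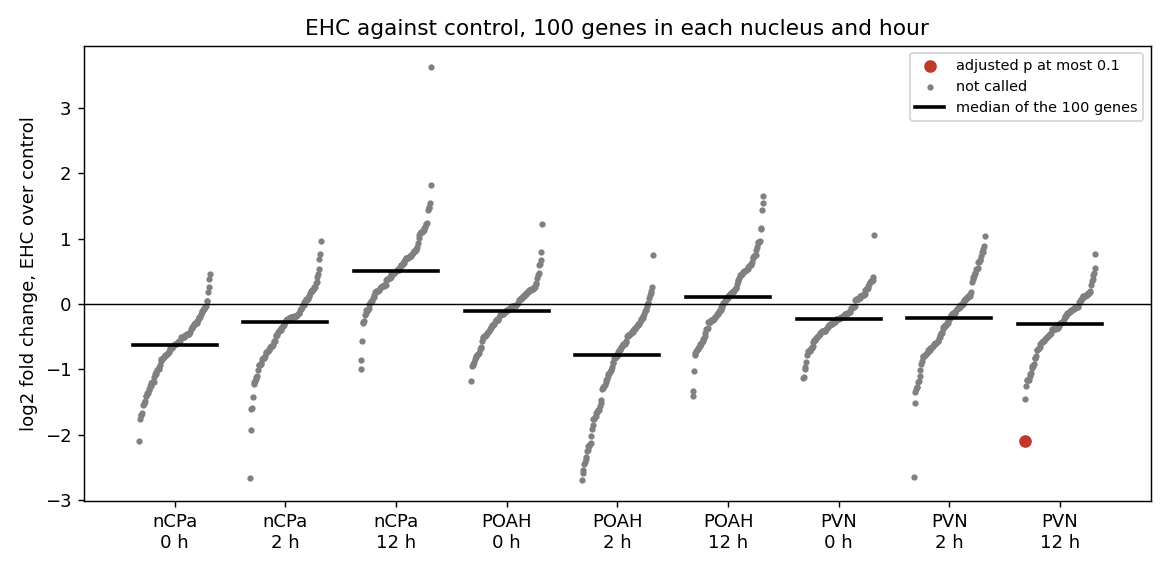
The log2 fold change of each of the 100 genes, EHC over control, in each nucleus and hour, in order of size within a column, from the edgeR fits. Black lines are medians, lowest in the POAH at hour 2 (-0.78) and highest in the nCPa at hour 12 (0.50), and the 1 called gene, in the PVN at hour 12, is red.

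By labelled sex, the levels lay apart at hour 0 in the POAH and the PVN. The rule took the hour 0 mean over both sexes, so genes high in the hour 0 females could pass it. The hour 0 levels by sex are thus a description. At hour 0 of the POAH, female chicks had levels of 4.79 to 6.11 and male chicks 3.63 to 4.47, with means of 5.38 ± 0.61 and 3.92 ± 0.38 (SD, n = 4 each). In the PVN at hour 0, female chicks had 4.37 to 5.13 and male chicks 3.51 to 4.21, with means of 4.77 ± 0.35 and 3.76 ± 0.32 (SD, n = 4 each). The 2 sexes did not overlap in either nucleus. In the nCPa at hour 0 they did, with 4.99 to 5.95 in females and 3.65 to 5.59 in males, of which 1 male was high and the other 3 were at 4.61 or lower.

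After hour 0 the sexes overlapped in every nucleus by label. In the POAH females averaged 4.42 ± 0.86 and males 3.76 ± 0.42 at hour 2, and females 4.11 ± 0.73 and males 3.90 ± 0.55 at hour 12 (SD, n = 4 each). In the nCPa females averaged 4.54 ± 0.54 and males 3.99 ± 0.68 at hour 2, and females 4.74 ± 0.82 and males 4.29 ± 0.64 at hour 12 (SD, n = 4 each). In the PVN females averaged 3.70 ± 0.32 and males 3.36 ± 0.18 at hour 2 (SD, n = 4 each), and females 4.00 ± 0.42 (SD, n = 3) and males 3.57 ± 0.16 (SD, n = 4) at hour 12. Females were higher in mean in all 9 combinations of nucleus and hour. After hour 0 the difference was smaller than the larger of the 2 SDs in the POAH and the nCPa and slightly above it in the PVN. Without the 5 libraries that went against the sex label, the PVN sexes no longer overlapped at hour 2, with 3.40 to 3.80 in females and 3.13 to 3.38 in males (n = 3 each), while the POAH had 3.29 to 5.21 in females and 3.46 to 4.37 in males (n = 3 each) and the nCPa 3.93 to 5.22 in females (n = 4) and 3.38 to 4.89 in males (n = 3).

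By gene, female values all lay above male values at hour 0 in 46 of the 100 genes in the POAH, against 7.98% of the 12786 genes, in 35 in the PVN, against 5.64%, and in 10 in the nCPa, against 7.48%. At hour 2 the counts were 2 in the POAH (5.26%), 12 in the PVN (7.54%) and 1 in the nCPa (1.24%), and at hour 12 they were 2 (1.56%), 12 (2.89%) and 0 (0.829%). Without the 5 libraries, the hour 2 counts were 2 in the POAH (9.13%), 17 in the PVN (22%) and 4 in the nCPa (2.72%). Since the rule used the hour 0 values, nothing is read from the hour 0 counts. ENSGALG00010019700 had 31.5, 65.1, 142.4 and 295 CPM in female POAH at hour 0, against 1.62, 1.69, 3.61 and 13.4 CPM in male POAH. ENSGALG00010007082 had 28.5, 45.8, 48.2 and 69.2 CPM in female PVN at hour 0, against 3.74, 6.54, 7.71 and 12.5 CPM in male PVN. In both cases every female was above every male. ENSGALG00010019700 overlapped in the PVN at hour 0, with 2.86 to 150 CPM in females and 1.14 to 7.52 CPM in males. It also overlapped in the nCPa at hour 0, with 56.5 to 243 CPM in females and 0.977 to 148.5 CPM in males. ENSGALG00010007082 did not overlap at hour 0 in the POAH or the nCPa either. The rule used these libraries, so the values are a description.

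Over all 3 hours, edgeR called 43 of the 100 genes higher in females in the POAH, against 5.8% of all genes, 29 in the PVN, against 2.6%, and 12 in the nCPa, against 2.54%, at an adjusted p of at most 0.1. None of the 100 was called lower in females in any nucleus, against 4.84%, 3% and 2.5% of all genes. These fits hold the hour 0 libraries that the rule used, so their counts and p-values are not independent of the choice of genes. The median log2 fold change, female over male, was 0.75 in the POAH, 0.51 in the PVN and 0.56 in the nCPa, against 0.03, 0.02 and 0.03 over all genes. In the POAH, ENSGALG00010019700 rose by 3.29 ± 0.80 (SE) on the log2 scale in females (12 against 12 libraries, adjusted p = 0.0211 by edgeR's quasi-likelihood test), and in the PVN, ENSGALG00010007082 rose by 1.66 ± 0.36 (11 against 12 libraries, adjusted p = 0.0111 by edgeR's quasi-likelihood test). The smallest adjusted p was 0.00218 in the POAH, for the gene of rank 21 (2.29 ± 0.42), and 0.000123 in the PVN, for the gene of rank 7 (2.91 ± 0.39). Of the 100 genes, 55 were called in at least 1 nucleus and 5 in all 3, and 53 of the 55 belonged to the covarying block. The block was made from deviations that kept the difference between the sexes, so nothing is read from this last count.

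These calls came from all hours together. The rule took the hour 0 mean over both sexes, so that a gene high in the 4 females of hour 0 could pass it, and the hour 0 difference between the sexes is not wholly independent of the choice. With the libraries of hours 2 and 12 alone, edgeR called 0 of the 100 in the POAH (0.363% of all genes higher in females), 1 in the PVN (0.0933%) and 0 in the nCPa (0.653%), with 21, 19 and 21 genes at an unadjusted p under 0.05. The median fold changes were then 0.41, 0.30 and 0.49, with 85, 81 and 92 of the 100 genes above 0. In the fits over all hours, 23.3%, 16.5% and 20% of all genes had an unadjusted p under 0.05. Such shares are not given here for hours 2 and 12 alone. Nothing is therefore read from the counts of the 100 at an unadjusted p or above 0. With hours 0 and 12 alone, which hold as many hours, the counts were 6 in the POAH (1.22%), 43 in the PVN (3.96%) and 0 in the nCPa (1.02%). Calls were thus lost in the POAH and the nCPa with either pair of hours, and in the PVN with hours 2 and 12. Without the 5 libraries that went against the sex label, 31 of the 100 were called in the POAH (3.51%), 41 in the PVN (5.47%) and 11 in the nCPa (2.01%) with all hours, and 0 (0.673%), 8 (1.26%) and 1 (0.786%) with hours 2 and 12 alone. In the nCPa, 3 were called without the libraries of over 4% mitochondrial mRNA (1.79%).

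**Figure D3:**
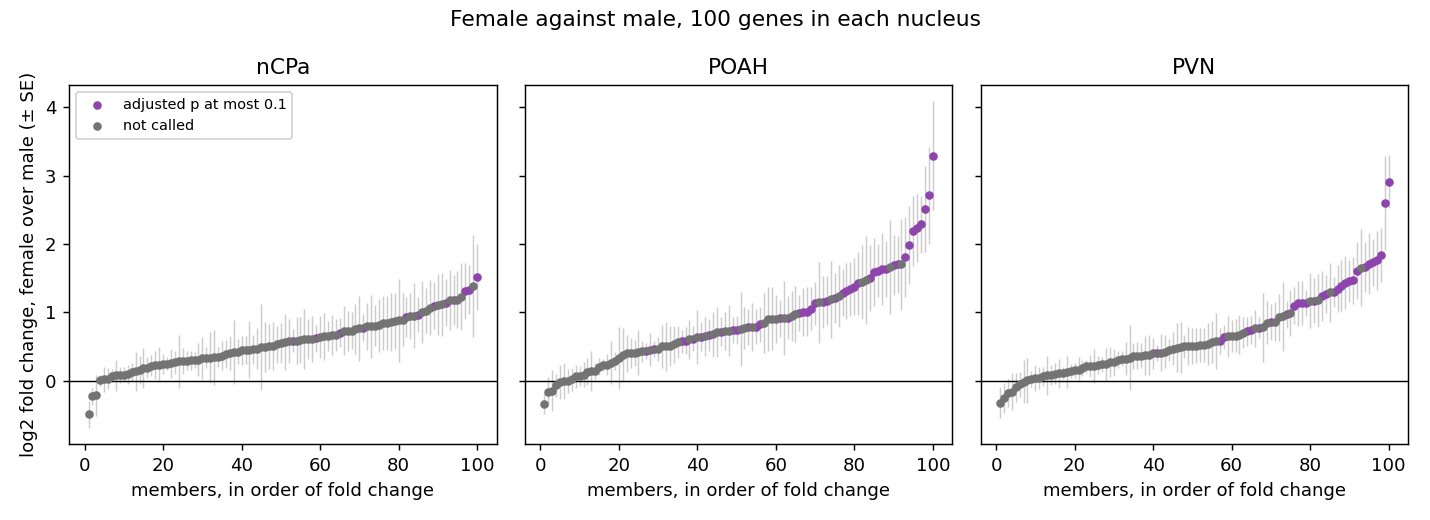
The log2 fold change of each of the 100 genes, female over male, with its standard error, in order of size within each nucleus, from the edgeR fits over the 3 hours. Points above 0 are 97 in the nCPa and 93 each in the POAH and PVN, and the 12, 43 and 29 called genes are purple.

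The median drop was larger in females than in males in every nucleus. It was 0.84 in females and -0.10 in males in the POAH, with 100 and 39 genes above 0, 0.63 in females and 0.13 in males in the PVN, with 98 and 64 genes above 0, and 0.64 in females and 0.24 in males in the nCPa, with 99 and 82 genes above 0. Without the 5 libraries these medians were 0.97 in females and -0.10 in males in the POAH, 0.64 in females and 0.15 in males in the PVN, and 0.64 in females and 0.22 in males in the nCPa. The rule used this drop, and genes high in the hour 0 females could pass it, so a larger drop in females may come with the choice of genes and is a description. The fitted difference, hour 0 minus the mean of hours 2 and 12 in females minus the same in males, had a median of 1.06 in the POAH, 0.58 in the PVN and 0.18 in the nCPa on the log2 scale. edgeR's quasi-likelihood test called 0 of the 100 genes and 0% of all genes in each nucleus, with 24, 17 and 3 of the 100 at an unadjusted p under 0.05 (7.59%, 7.98% and 5.11% of all genes), and DESeq2 called 0 (0.0788%), 1 (0.55%) and 0 (0.00982%), with an adjusted p for 42 of the 100 in the PVN. Without the 5 libraries that went against the sex label the medians were 1.08, 0.66 and 0.08 and edgeR still called 0.

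The level also differed between nuclei. It averaged 3.86 ± 0.54 in the PVN (SD, n = 23), 4.25 ± 0.78 in the POAH (SD, n = 24) and 4.602 ± 0.76 in the nCPa (SD, n = 24), and the order of PVN below POAH below nCPa held for 81 of the 100 genes. The highest mean was in the nCPa for 86 genes and in the POAH for 14. edgeR called 75 of the 100 lower in the PVN than in the nCPa, against 11% of all genes, and 41 lower in the PVN than in the POAH, against 7.17%. In the POAH 8 were called lower than in the nCPa, against 2.8%. None was called in the other direction, against 11.1%, 4.62% and 2.73% of all genes. The median log2 fold changes were -0.78 for PVN over nCPa, -0.50 for PVN over POAH and -0.32 for POAH over nCPa, against -0.03, -0.03 and 0.00 over all genes.

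ENSGALG00010007082 fell by 1.73 ± 0.32 (SE) on the log2 scale in the PVN relative to the nCPa (23 against 24 libraries, adjusted p = 0.000408 by edgeR's quasi-likelihood test). The smallest adjusted p of the 100 was 0.000221 for PVN over nCPa and 0.00641 for PVN over POAH, in both cases for the gene of rank 52, with log2 fold changes of -1.70 ± 0.29 and -1.22 ± 0.27 (SE). With hours 2 and 12 alone, 58 of the 100 were called lower in the PVN than in the nCPa (5.24% of all genes), 6 lower in the PVN than in the POAH (1.73%) and 1 lower in the POAH than in the nCPa (0.324%), with medians of -0.82, -0.48 and -0.31. The median difference between PVN and nCPa was of similar size without the hour 0 libraries. The rule used hours 2 and 12 as well, so this is no check independent of the choice of genes. With all hours, the covarying block carried the difference, with a median of -0.89 in the 86 genes for PVN over nCPa, against -0.09 in the other 14.

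The nuclei were not independent samples. Within the sets of 3 consecutive library numbers, the deviations of the level from its group mean correlated with r = 0.80 between nCPa and POAH (24 sets), 0.82 between POAH and PVN (22 sets) and 0.60 between nCPa and PVN (22 sets). Without the set of mixed sex they were 0.82 (23 sets), 0.83 (21 sets) and 0.64 (21 sets). A set with a high level in 1 nucleus tended to have it in the others. The group means were of 1 nucleus, hour and treatment, so the deviations kept the difference between the sexes. Libraries of a set share their labelled sex, and a set that is 1 chick also shares its handling. The part of either in these correlations was not tested. With the set as a block, edgeR called 67 of the 100 lower in the PVN than in the nCPa (9.72% of all genes), 37 lower in the PVN than in the POAH (9.77%) and 36 lower in the POAH than in the nCPa (4.96%), the last against 8 and 2.8% without the block. Without the set of mixed sex the counts were 67 (9.82%), 38 (10.3%) and 38 (5.04%), and 1 gene was called higher in the PVN than in the POAH. Averaged over its nuclei, the level was 4.72 to 5.59 in the 4 female sets of hour 0 and 3.69 to 5.03 in the 5 male sets, 3.54 to 4.74 in females and 3.47 to 4.13 in males at hour 2 (the same without the sets that hold the 5 libraries), and 3.68 to 4.94 in females and 3.61 to 4.39 in males at hour 12. Not all of these sets were complete. The male set at 5.03 and the female set at 4.94 had no PVN library, and 1 male set of hour 0 was a PVN library alone (4.21). The level was lowest in the PVN, so these means are not comparable with those of full sets. The paper describes 8 chicks at each hour and the numbers give 9 sets at hour 0, so 1 set there is probably split.

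**Figure D4:**
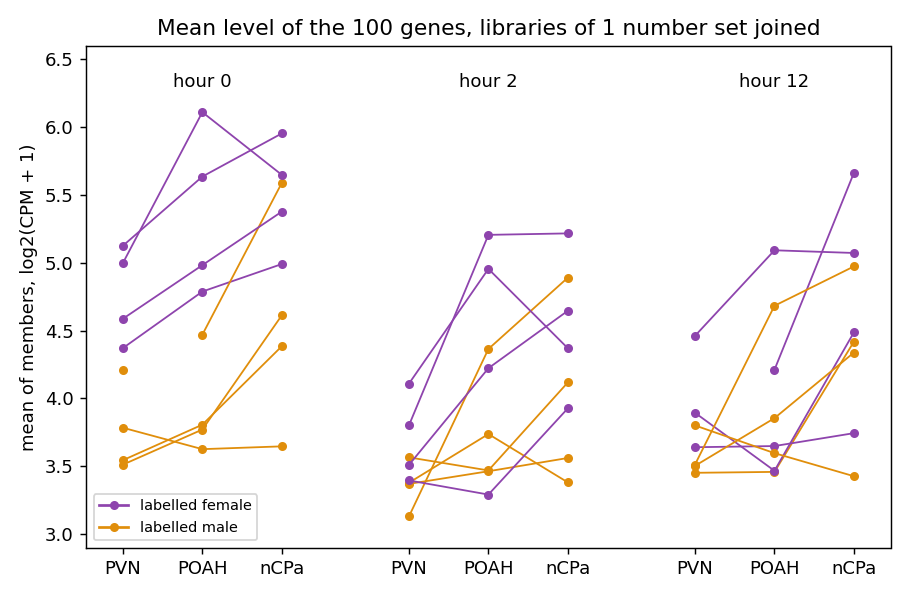
Mean log2(CPM + 1) of the 100 genes in the PVN, POAH and nCPa, with libraries of 1 set of consecutive numbers joined, at hours 0, 2 and 12, females purple and males orange. At hour 0 the 4 female sets lie above the male libraries in the PVN and the POAH, and at hours 2 and 12 the lines of the sexes cross. Sex is as labelled, also for the hour 2 set that holds both by its female-limited genes. The same holds for another set of hour 2, drawn as male, in which all libraries were as in females by these genes.

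Among all genes with a mean of at least 5 CPM, those whose log2(CPM + 1) followed ENSGALG00010019700 most closely over the 71 libraries were 3 others of the 100, of rank 31 (r = 0.96), 66 (r = 0.92) and 19 (r = 0.91). The next were 2 genes outside the 100 (r = 0.91 and 0.91), 1 of them the gene that missed the threshold by the least. These libraries share chicks and depth, and the correlations are a description.

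Of the genes that have a symbol at hand, which come from the study's own lists of responsive genes and not from an independent source, the 5 that followed the level of the 100 most closely and inversely were CAPRIN2 (r = -0.65) and 4 cytosolic subunits of the vacuolar proton pump, which acidifies vesicles and lysosomes. These were chosen after their values were seen. Over the 71 libraries the pump subunits had r = -0.74 for ATP6V1H (Spearman's rho -0.72), -0.73 for ATP6V1C1 (rho -0.71), -0.63 for ATP6V1G1 (rho -0.65) and -0.62 for ATP6V1D (rho -0.61). Without the 2 libraries farthest from the median level they were -0.70, -0.70, -0.61 and -0.57. Within the PVN, r was -0.65, -0.55, -0.32 and -0.47 for the 4 in the same order. Without the 2 farthest of 23 PVN libraries it was -0.47, -0.29, -0.10 and -0.50. The PVN was not the weakest nucleus for ATP6V1H, which had r = -0.55 in the POAH. SCG5, a secreted chaperone of prohormone convertase 2, had r = -0.52 and rho = -0.73. BEND3 (r = 0.65) and XPO7, a nuclear transport receptor (r = 0.64), ran with the level.

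Some of these genes differed between sexes and nuclei too. In the POAH, ATP6V1C1 fell by 0.51 ± 0.11 (SE) on the log2 scale in females (12 against 12 libraries, adjusted p = 0.00698 by edgeR's quasi-likelihood test) and ATP6V1G1 fell by 0.35 ± 0.07 (adjusted p = 0.00827 by edgeR's quasi-likelihood test). ATP6V1H and ATP6V1D were called lower there too, with log2 fold changes of -0.45 and -0.29 (adjusted p = 0.0503 and 0.0866 by edgeR's quasi-likelihood test). In the nCPa ATP6V1C1 and ATP6V1G1 had log2 fold changes of -0.34 and -0.24, and in the PVN -0.23 and -0.15. None of the pump subunits was called for sex in the nCPa or the PVN. The subunits were thus lower in female POAH, where called members of the 100 were higher. In the PVN relative to the nCPa, ATP6V1H rose by 0.39 ± 0.11 (SE) on the log2 scale (23 against 24 libraries, adjusted p = 0.00912 by edgeR's quasi-likelihood test) and BEND3, in the same direction as the 100, fell by 0.27 ± 0.07 (adjusted p = 0.00884 by edgeR's quasi-likelihood test). ATP6V1C1, ATP6V1G1 and SCG5 were also called higher and XPO7 lower in the PVN than in the nCPa, while ATP6V1D was not called. The level itself stood in no close relation to the 3 meningeal genes with a symbol, with r of -0.33 for MFAP5, -0.04 for SERPINF1 and 0.01 for MGP. The part of other cell types in the level was not tested, since the other cell type markers had no symbol.

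The 14 genes outside the block behaved differently from it, as values. Their median log2 fold change, female over male, was 0.06 in the POAH, 0.25 in the PVN and 0.30 in the nCPa, against 0.84, 0.56 and 0.61 in the 86. In the POAH at hour 2 their median for EHC over control was -0.09, against -0.83 in the block, and in the nCPa at hour 0 it was -0.12, against -0.70. At hour 12 of the nCPa the medians were 0.36 and 0.52. Of the 14, edgeR called 1 for sex in the PVN, 1 in the nCPa and none in the POAH, against 28, 11 and 43 of the 86. For PVN over nCPa it called 4 of the 14 and 71 of the 86, for PVN over POAH 0 and 41, and for POAH over nCPa 2 and 6. The split into block and other genes was made from these libraries and was not tested. The deviations behind it kept the difference between the sexes, so a gene that differed by sex could join the block through it. The sex values of the block and of the other genes are thus not independent of the split.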

How the data were processed

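RNA of nucleus punches was sequenced from rRNA-depleted, stranded libraries. According to the submitters' processing notes, the authors trimmed reads with Trimmomatic 0.39, aligned them with HISAT2 and filtered them with SAMtools 1.10. Unique pairs without duplicates were then counted per Ensembl gene with featureCounts, and the strand setting of that step is not given in the sources used here, so overlapping and antisense genes are uncertain. The deposited values are raw counts per gene. CPM were computed from them by library total. Tests were run on the counts with edgeR 4.0.16 (R 4.3.3, TMM, quasi-likelihood, Benjamini-Hochberg) on 20363 genes with more than 1 CPM in at least 4 libraries, all of the 100 among them, with sex, treatment or hour as covariates, and with DESeq2 1.42.0 as an alternative. Both were tested on simulated data. Standard errors were taken from the log2 fold change divided by the root of F.

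The 100 genes, the gene lists and the tests were chosen with earlier results of these data known. The rule for naming genes took symbols first, at most 2 genes without one (the highest scores), and the 3 genes on each side of the threshold. Genes given by rank were named outside this rule, after their values were seen. Promoter motifs, sequences and unmatched lists were not used here, since no symbol matched. Of the matched list genes (mitochondrially encoded mRNAs, meningeal genes, HSPA9, SCG5, MOGS, PSAT1, PSMA2, PSMD3, GEMIN4, INTS11 and LSM12), 0 were among the 100. Groups, hour and sex came from the labels, and nothing says how chicks were shared beyond the library numbers, so p-values of nuclei measure the spread between these punches. Plots were drawn with matplotlib 3.10.9.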

Additional observations from a re-analysis of the deposited data

Results flagged for a closer look

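Of 26 groups of libraries tested for a value far from the others, 1 was set apart, and chance sets apart about 1 in 20. Among the 4 control POAH libraries of hour 12, 1 female library had a mean log2(CPM + 1) of the 100 genes of 5.09, and the next highest of its group had 3.65. The nCPa and PVN libraries of the same number set had 5.07 and 4.46, the highest of their groups too. In the tests of whether the drop differed between treatments or between sexes, edgeR called none of the 100 genes.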

How the results depend on the processing

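The rule applied to EHC chicks alone gave 14 of the 100 genes and to control chicks alone 33. Other scalings, pseudocounts and mean CPM minimums shared 74 to 96, leaving out groups of doubtful libraries 78 to 85, and leaving out 1 library at a time 69 to 98. Among the 100, edgeR called 12 genes for sex in the nCPa, and this became 5 without the filter on low counts, 3 without libraries over 4% mitochondrial mRNA and 0 with hours 0 and 12 alone. For sex with hours 2 and 12 alone the counts were 0, 0 and 1 in the nCPa, POAH and PVN, and 1, 0 and 8 without the libraries against the sex label too. With hours 0 and 12 alone the POAH had 6. The 8 genes of POAH against nCPa became 14 by DESeq2, 5 without the filter, 5 without a sex term, 3 without libraries over 4% mitochondrial mRNA, 1 with hours 2 and 12 alone 36 with the replicate block of library number sets and 38 with that block but without the set of mixed sex, while the block changed no other call count by over 1.5 times. The 41 of PVN against POAH became 6 with hours 2 and 12 alone. These counts show how far the calls moved with the setting. Nothing else is read from those that have no share of all genes, here or above.

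For EHC against control, the nCPa at hour 12 had 3 calls by DESeq2 (2.1% of all genes) and 2 in a model of all nCPa libraries. The POAH at hour 2 had 13 by DESeq2 (2.05%) and 1 without a sex term. The PVN had 1 at hour 0 (0.738%) and 2 at hour 12 (1.46%) by DESeq2, and 0 at hour 12 in a model of all PVN libraries. Leaving out 1 library gave 0 to 4 calls in the POAH at hour 2, with 4 without control replicate 2, 3 without EHC replicate 2 and 2 without EHC replicate 4. It gave 0 to 2 in the PVN at hour 12, with 0 without any 1 of the 3 EHC libraries and 2 without control replicate 1, and 0 in the other hours and in the tests of drop. DESeq2 called 1 gene for sex by hour in the PVN (0.55% of all genes). For hour 2 against hour 0 it called 1 in the POAH and 6 in the PVN, where edgeR without a sex term called 0. The cause of these changes was not tested. Counts without a share of all genes show only how a count moved with the setting, and nothing else is read from them. In all, 31 settings other than leaving out 1 library moved a count by over 1.5 times, or to or from 0. The rule applied to EHC or control chicks alone is among them. The rest kept the count within that range, where a count that stayed at 0 was taken as kept. The settings that leave out hours, shallow libraries, mitochondria-rich libraries or the set of mixed sex were chosen after seeing the data. The library with the fewest counts over the 100 genes had 2228, and counting error limits single genes there.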
